A study of Oryza sativa with 3 samples.

Results

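ADP-glucose pyrophosphorylase is the enzyme that joins glucose 1-phosphate to ATP to give ADP-glucose, the glucose donor for starch. The 6 rice (Oryza sativa) genes of the enzyme were followed through 3 tissues, out of 51597 genes with a single identifier in all 3 libraries. They were taken by identifier as AGPL1 (LOC_Os05g50380), AGPL2 (LOC_Os01g44220), AGPL3 (LOC_Os03g52460), AGPL4 (LOC_Os07g13980), LOC_Os09g12660 and LOC_Os08g25734. Total RNA from nodes I and II (node), from stem and from leaf blade was sequenced as paired-end libraries, 1 per tissue. Nodes are the joints where leaves attach to the grass stem. All the plants grew at 29 °C under 12 h of light at about 80000 lux and 12 h of dark, in a greenhouse or growth chamber. No genotype or treatment separates the groups. The sources used here give no cultivar, growth stage or time of sampling.

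The deposited description of each of the 6 rows names the enzyme, as glucose-1-phosphate adenylyltransferase, and no other row in any library carries that name. It also says large subunit for all 6. LOC_Os09g12660 and LOC_Os08g25734 are known in rice as AGPS1 and AGPS2, genes of the small subunit. Because the description says otherwise, they are called by identifier below, and their place among the small subunits rests on the identifiers alone.

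In plants the enzyme is a tetramer of equal numbers of large and small subunits. The small subunit carries most of the catalytic activity and the large subunit tunes the response to the activator 3-phosphoglycerate and the inhibitor phosphate. In leaves the enzyme sits in the chloroplast and feeds starch that is stored by day and used by night. Rice stems and leaf sheaths also fill with starch before flowering and pass it to the grain later. In the rice endosperm most of the activity is cytosolic and comes from AGPL2 with a form of the LOC_Os08g25734 product, a gene that makes plastid and cytosolic forms from alternative first exons. The other members are known as plastid subunits.

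Levels are given in FPKM, fragments scaled to transcript length and library size, with the deposited interval in brackets. The summed fragments implied by these intervals, to the nearest 10000, were 39960000 in node, 43160000 in stem and 39880000 in leaf blade. The intervals cover no more than counting error, and no difference has a replicate check or a p-value. The tissue labels were set against marker genes. All 5 markers of node and stem, homeobox and secondary wall cellulose synthase genes, were lowest in leaf blade, with summed levels of 330.3 FPKM in node, 508 in stem and 0.779 in leaf blade. Of 4 leaf markers, 3 were highest in leaf blade and the antenna gene CAB2R was highest in stem, at 2741 FPKM against 1999 in leaf blade. The summed levels of those 4 were 483 FPKM in node, 3443 in stem and 6849 in leaf blade.

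AGPL1 and LOC_Os09g12660 made up nearly all of the enzyme's transcripts in stem and most of them in node, and both were at low levels in leaf blade. AGPL1 (chromosome 5, 28871794 to 28877277) is a plastid large subunit gene. It had 104 FPKM in node (101 to 107), 1502 FPKM in stem (1492 to 1512) and 10.7 FPKM in leaf blade (9.85 to 11.5). Stem was far above the others, and no intervals overlapped. LOC_Os09g12660 (chromosome 9, 7245359 to 7249816), a plastid small subunit gene by its identifier, had 134 FPKM in node (131 to 136), 794 in stem (789 to 800.2) and 6.11 in leaf blade (5.59 to 6.63). Its order of tissues was the same, stem above node above leaf blade, again with no overlap. Ranked by FPKM among the 51597 genes, AGPL1 was the 35th in stem and LOC_Os09g12660 the 82nd. In leaf blade they stood at ranks 9150 and 11453. In tissue RNA of this kind, more cells of a type and more RNA per cell cannot be told apart.

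**Figure D1:**
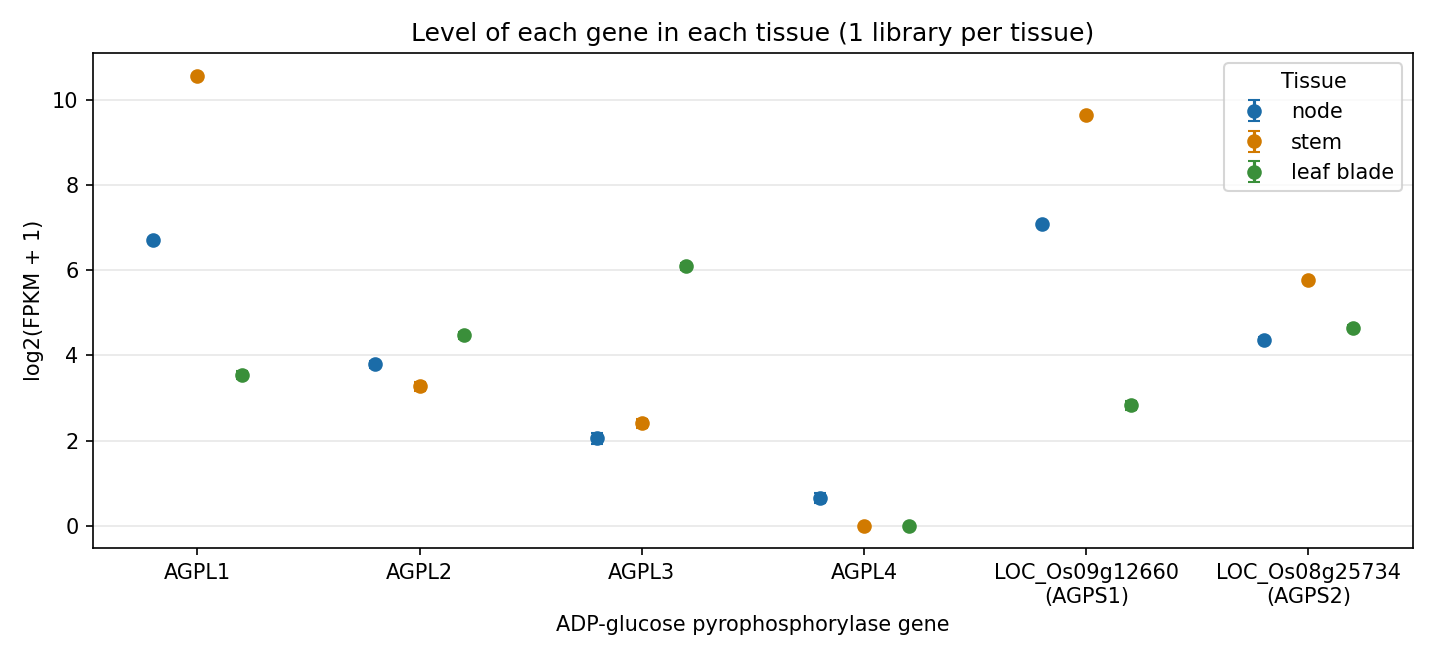
Level of the 6 genes as log2(FPKM + 1) (vertical axis) in node, stem and leaf blade, 1 library each, with bars for the deposited intervals, most of them smaller than the points. AGPL1 and LOC_Os09g12660 are highest in stem, at 1502 and 794 FPKM, AGPL2 and AGPL3 are highest in leaf blade, and AGPL4 lies at or near 0.

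LOC_Os08g25734 varied far less. This gene (chromosome 8, 15666201 to 15672594), the other small subunit gene by its identifier, had 19.5 FPKM in node (18.6 to 20.4), 53.0 in stem (51.5 to 54.5) and 24.0 in leaf blade (22.9 to 25.0). Stem was again highest, but node was a little below leaf blade, and the 3 levels lay within 4-fold of each other. The plastid and cytosolic forms of its product share this row and were not separated.

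AGPL2 and AGPL3 ran the other way, with their highest levels in leaf blade. AGPL2 (chromosome 1, 25353769 to 25362199) had 12.8 FPKM in node (11.9 to 13.7), 8.65 in stem (7.96 to 9.34) and 21.1 in leaf blade (19.9 to 22.3), so that a gene best known from the endosperm was measured in all 3 vegetative tissues. AGPL3 (chromosome 3, 30099369 to 30104596), a plastid large subunit gene, had 3.14 FPKM in node (2.77 to 3.51), 4.30 in stem (3.89 to 4.72) and 66.9 in leaf blade (63.1 to 70.7). The leaf blade level of AGPL3 was the highest of the 6 genes in that tissue.

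The size of the AGPL3 difference depended on the length that the deposited values assume. Its interval implies 284 fragments in node, 430.0 in stem and 1233 in leaf blade, or 7.11, 9.96 and 30.9 per 1000000 fragments of the library. FPKM and fragments together imply a transcript length of 2.26 kb in node, 2.32 kb in stem and 0.462 kb in leaf blade. AGPL3 was thus 21.3-fold lower in node than in leaf blade by FPKM but 4.35-fold lower by share of fragments. For stem against leaf blade the figures were 15.5-fold lower by FPKM and 3.10-fold lower by share of fragments. With its median length used in all libraries, the level in leaf blade was 13.7 rather than 66.9 on the FPKM scale. The longest implied length of AGPL3 was 5.01 times the shortest, while the same ratio was 1.04 for LOC_Os09g12660 and LOC_Os08g25734, 1.17 for AGPL2 and 1.19 for AGPL1. Among 14230 compared genes with at least 50 implied fragments in every library, 4.88% had a ratio of 4 or more and the median was 1.26. Whether a short transcript form in leaf blade or the assignment of fragments gave this length was not tested.

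AGPL4 (chromosome 7, 7982501 to 7989283), the remaining large subunit gene, was listed at 0.575 FPKM in node (0.439 to 0.712), from 71.0 implied fragments, and at 0 in stem and leaf blade. It did not reach 1 FPKM anywhere and was left out of the comparisons, which thus held 5 of the 6 members. An expressed protein of another identifier, LOC_Os07g13969 (chromosome 7, 7982501 to 7983595), starts at the same base and lies within this locus. That row had 0.133 FPKM in stem and 15.9 FPKM in leaf blade, with 686 implied fragments in leaf blade, and the node library had no row under this identifier. No other member's locus overlapped another row. Whether the 2 rows share fragments was not tested, and the zeros listed for AGPL4 were not read as absence.

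The 6 genes summed to 273 FPKM in node, 2362 in stem and 129 in leaf blade. In stem the sum was 0.246% of all FPKM in the library, against 0.0138% in leaf blade, and in node it was 0.0271%. The leading gene differed between tissues. It was LOC_Os09g12660 in node, with 48.8% of the sum (interval 48.1 to 49.5), AGPL1 in stem, with 63.6% (63.4 to 63.8), and AGPL3 in leaf blade, with 52.0% (50.4 to 53.6). With 1 length per gene in all libraries, AGPL3 held 18.4% in leaf blade and LOC_Os08g25734 led there with 32.9%, while the leading genes of node and stem were as before, at 48.3% and 61.5%.

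Each kind of subunit had its own leading gene. Among large subunits AGPL1 held 86.3% of the FPKM in node (85.5 to 87.0), 99.1% in stem (99.1 to 99.2) and 10.8% in leaf blade (9.95 to 11.7). AGPL2 held 10.6%, 0.571% and 21.4% in the same order, and AGPL3 held 2.61%, 0.284% and 67.8%. With 1 length per gene the leaf blade shares became 26.5% for AGPL1, 42.2% for AGPL2 and 31.3% for AGPL3, so no large subunit held most of the leaf blade level on that scale. Between the small subunit genes, LOC_Os09g12660 held 87.3% in node (86.7 to 87.8), 93.7% in stem (93.6 to 93.9) and 20.3% in leaf blade (18.8 to 21.9). LOC_Os08g25734 held the rest, 12.7%, 6.25% and 79.7%. The small subunit shares moved by less than their intervals with 1 length per gene.

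**Figure D2:**
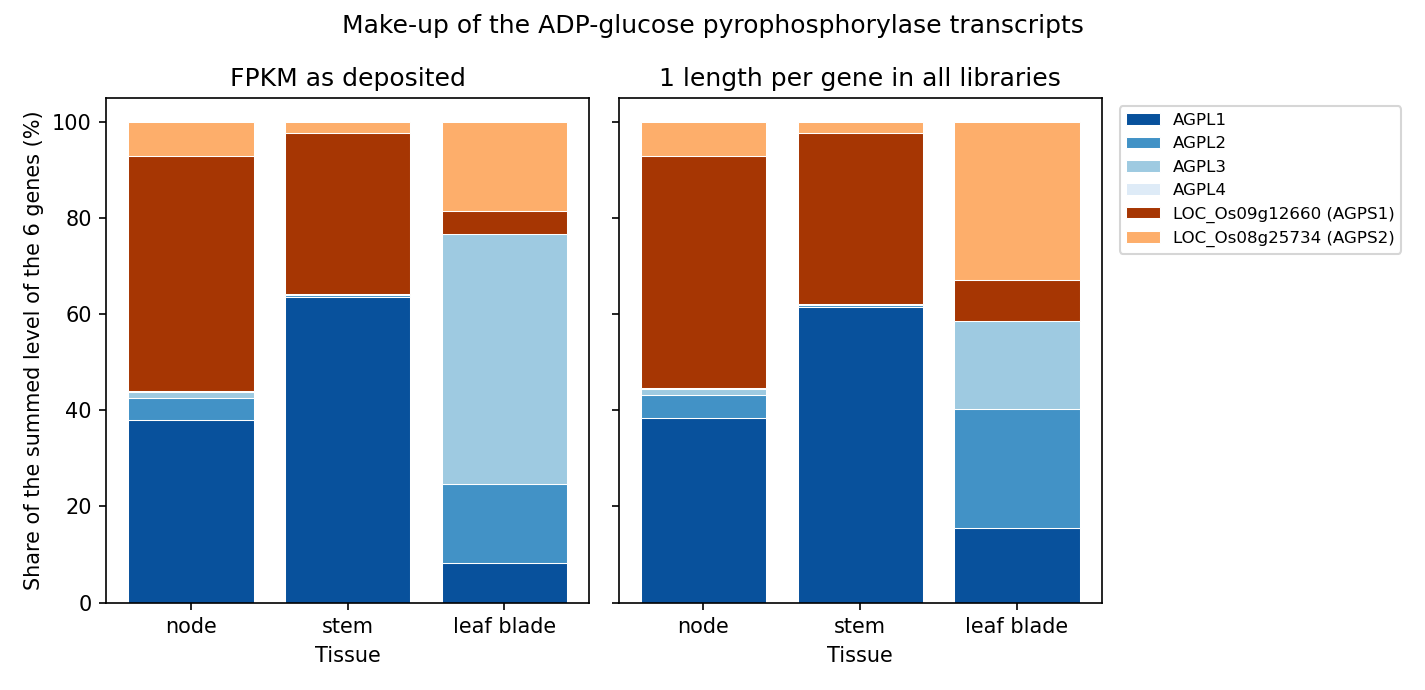
Share of each gene in the summed level of the 6 genes (vertical axis, %) in node, stem and leaf blade, from FPKM as deposited (left) and with 1 length per gene in all libraries (right). AGPL1 and LOC_Os09g12660 fill most of the node and stem bars on both scales, and AGPL3 takes 52.0% of the leaf blade bar on the left and 18.4% on the right.

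The balance of large to small subunit transcripts also differed. Summed FPKM of the large subunit genes per FPKM of the small subunit genes was 0.787 in node (0.764 to 0.809), 1.79 in stem (1.77 to 1.80) and 3.28 in leaf blade (3.10 to 3.46). Node was thus the tissue with more small than large subunit transcript, at 153 FPKM of small and 120.4 FPKM of large. With 1 length per gene the ratios were 0.807 in node, 1.63 in stem and 1.42 in leaf blade, which removed most of the excess in leaf blade and put stem first. AGPL1 per LOC_Os09g12660, the leading pair of stem and node, was 0.778 in node, 1.89 in stem and 1.74 in leaf blade. With 1 length per gene the levels of this pair were 1372 and 794 in stem and 11.5 and 6.24 in leaf blade. On that scale the ratio was higher in leaf blade than in stem, so the order of these tissues is uncertain.

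The node was compared with the leaf blade first. Differences are log2 ratios of (FPKM + 1), with intervals from counting error, and the threshold for calling a gene higher or lower was 4-fold, a difference of 2. LOC_Os09g12660 was higher in node with a log2 difference of 4.24 (4.13 to 4.35) and AGPL1 with 3.17 (3.06 to 3.28), ratios of 21.9 and 9.75 in FPKM. AGPL3 was lower, at -4.04 (-4.19 to -3.88), but its value was -1.82 with 1 length per gene, short of the threshold. That shortfall depends on the added 1, since the plain ratio of fragment shares was 4.35-fold. AGPL2 at -0.68 (-0.80 to -0.56) and LOC_Os08g25734 at -0.28 (-0.37 to -0.19) were within 4-fold. Of the 5 members compared, 2 were thus higher and 1 was lower, while of the 20097 genes compared 12.3% were higher and 7.29% lower. The median was -0.28 over the members and 0.13 over all genes. The small subunit sum was 5.09-fold that of leaf blade, and the large subunit sum 1.22-fold, or 2.77-fold with 1 length per gene.

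The stem differed from the leaf blade by more. AGPL1 was 141-fold higher in stem than in leaf blade by FPKM and LOC_Os09g12660 130.1-fold, which are log2 differences of 7.01 (6.91 to 7.11) and 6.81 (6.70 to 6.91). These were the 13th and 17th highest of the 20097 differences. By share of fragments the ratios were 119 and 127, so the members that lead in stem did so on both scales. AGPL3 was lower, at -3.68 (-3.82 to -3.54), and at -1.44 with 1 length per gene. LOC_Os08g25734 at 1.11 (1.04 to 1.18) and AGPL2 at -1.19 (-1.32 to -1.07) were within 4-fold. Again 2 of 5 members were higher and 1 was lower, where 6.43% of all genes were higher and 6.52% lower. The median was 1.11 over the members and -0.02 over all genes. Summed over the family the stem level was 18.4-fold that of leaf blade, and 30.1-fold with 1 length per gene. The leaf blade library serves both of these comparisons, so they are not independent.

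Node and stem had the same leading genes at different levels. AGPL1 was 14.5-fold lower in node than in stem and LOC_Os09g12660 5.95-fold lower, with log2 differences of -3.84 (-3.88 to -3.80) and -2.56 (-2.59 to -2.54). LOC_Os08g25734 was 2.72-fold lower, at -1.40 (-1.47 to -1.32). AGPL3 at -0.36 (-0.53 to -0.19) and AGPL2 at 0.52 (0.38 to 0.65) were closest to each other in the 2 tissues. No member was higher in node by 4-fold and 2 of 5 were lower, where 6.82% of all genes were higher and 2.3% lower. AGPL1 had the 41st lowest of the 20097 differences. The median was -1.40 over the members and 0.16 over all genes.

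**Figure D3:**
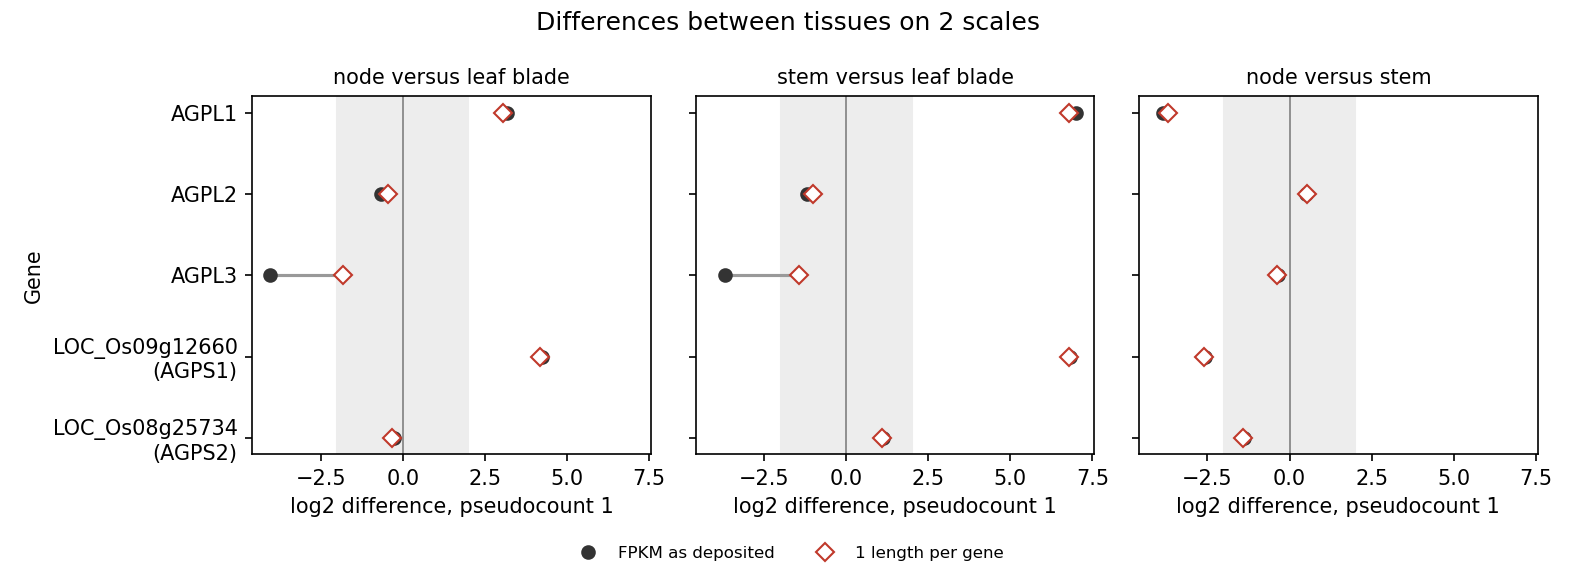
Log2 difference (horizontal axis, pseudocount 1) of the 5 compared genes for node against leaf blade, stem against leaf blade and node against stem, from FPKM as deposited (filled) and with 1 length per gene (open). The grey band marks differences under 4-fold. AGPL3 is the gene whose call changes, with -4.04 and -1.82 in node versus leaf blade and -3.68 and -1.44 in stem versus leaf blade.

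Profiles were compared by the distance between log2(FPKM + 1) values centred on their mean over the 3 tissues, among genes with a specific description at 10 FPKM or more. For AGPL1, LOC_Os09g12660 was the 6th nearest of 9192 genes (distance 0.970), and AGPL1 was the 4th nearest to LOC_Os09g12660. With 1 length per gene these places were 5 and 6. The nearest to AGPL1 was a cytochrome P450 gene, LOC_Os03g45619 (0.440), with 11.6 FPKM in node, 224 in stem and 0.134 in leaf blade. Then came a chalcone synthase gene, LOC_Os11g32650 (0.520), and an O-methyltransferase gene, LOC_Os05g43930 (0.714). The same chalcone synthase gene was the nearest to LOC_Os09g12660 (0.452), with 18.7 FPKM in node, 176 in stem and 0.440 in leaf blade, followed by a terpene synthase gene, LOC_Os03g31430 (0.710), and a UDP-glucosyl transferase gene, LOC_Os01g08440 (0.796). LOC_Os01g08440 was at 1.95 with 1 length per gene, and the distances of the other named neighbours of this pair were 0.424 to 0.698. Likeness over 3 libraries is a description only, and less extreme profiles have many close neighbours.

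The other compared members had nearer neighbours. For LOC_Os08g25734 these were a nodulin gene, LOC_Os04g42420 (0.0686), a B-box zinc finger gene, LOC_Os06g49880 (0.0743), and a cysteine proteinase gene, LOC_Os04g24600 (0.0816). With 1 length per gene they stood in places 62, 23 and 11. For AGPL2 the nearest were a phosphatase gene, LOC_Os12g03990 (0.0208), a regulator protein gene, LOC_Os09g25950 (0.0280), and an RNA recognition motif gene, LOC_Os04g41910 (0.0356). The implied fragments of LOC_Os12g03990 put stem first, at 7.25 per 1000000 against 4.38 in leaf blade, unlike its FPKM, and its distance from AGPL2 with 1 length per gene was 1.33. On that scale LOC_Os09g25950 and LOC_Os04g41910 were at 0.190 and 0.242 from AGPL2, in places 152 and 256. For AGPL3 the nearest were an indole-3-glycerol phosphate synthase gene, LOC_Os09g08130 (0.0169), an O-methyltransferase gene, LOC_Os09g17560 (0.106), and a cytochrome P450 72A1 gene, LOC_Os01g43851 (0.110), all under 1 FPKM in node. The likeness to AGPL3 rests on its deposited leaf blade level and did not hold with 1 length per gene, where these 3 genes were at distances of 1.83, 1.95 and 1.35. AGPL2 and AGPL3, both highest in leaf blade, were 2.46 apart by FPKM and 0.985 apart with 1 length per gene.

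The pathway around the enzyme was described from 40 genes in 5 lists, of which 30 were compared, 4 stayed under 1 FPKM in all tissues and 6 had no row of a single identifier in all libraries. Against leaf blade, 7 of the 30 were higher in stem by 4-fold and 1 was lower, beside 6.43% and 6.52% of all genes, and the median of the log2 differences was 0.96 (-0.02 over all genes). For node against leaf blade, 3 were higher and 2 lower, near the 12.3% and 7.29% of all genes, and the median was 0.18 (0.13 over all genes). For node against stem, 2 were higher and 8 lower, beside 6.82% and 2.3% of all genes, and the median was -0.73 (0.16 over all genes). On the scale of 1 length per gene those counts were 9 and 0, 4 and 0, and 2 and 8. The 9 and the 8 include BEIIa, a gene described below whose implied length in leaf blade is far too short for a transcript.

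Upstream, substrate supply genes gave 2 of 7 higher in stem than in leaf blade and 1 of 7 higher in node than in leaf blade, with none lower. Over all genes the shares higher were 6.43% in stem and 12.3% in node, so the count in node is near the background. SUS1, a sucrose synthase that cleaves sucrose into UDP-glucose and fructose, had 499 FPKM in node, 109.6 in stem and 2.63 in leaf blade. It was thus highest in node, where AGPL1 and LOC_Os09g12660 lay between stem and leaf blade. SUS2, another sucrose synthase, had 284 FPKM in node, 482 in stem and 116 in leaf blade. Its stem minus leaf blade value on the log2 scale was 2.04 by FPKM and 0.79 with 1 length per gene. The node minus stem value of SUS2 was -0.76 by FPKM and 0.43 with 1 length per gene, so its highest tissue is uncertain. The plastid phosphoglucomutase gene, whose enzyme makes glucose 1-phosphate in the plastid, had 16.2 FPKM in node, 72.8 in stem and 20.7 in leaf blade, a profile with stem first and node last like that of LOC_Os08g25734.

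Of 4 plastid envelope transporters compared, 1 was higher in stem than in leaf blade and none in node, where 6.43% and 12.3% of all genes were higher. The same transporter, GPT1, passed 4-fold in node as well with 1 length per gene, at 2.07 against 1.70 by FPKM. GPT1, which brings glucose 6-phosphate into the plastid, had 116 FPKM in node, 789 in stem and 35.0 in leaf blade. Its stem minus leaf blade value was 4.46 on the log2 scale, and 3.43 with 1 length per gene. NTT2, an ATP importer of the plastid, had 101 FPKM in node, 175 in stem and 88.2 in leaf blade, and its difference in stem versus leaf blade changed sign with 1 length per gene, at 0.98 and -0.50. TPT, which exports triose phosphate from chloroplasts, was under 4-fold in both comparisons, at 82.6 FPKM in node, 80.1 in stem and 158 in leaf blade. BT1-1, known for carrying ADP-glucose into endosperm plastids, was listed at 0 in all 3 tissues.

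Downstream, 2 of 9 starch synthase genes were higher in stem than in leaf blade, and in node versus leaf blade none was higher and 1 was lower. All genes gave 6.43% higher in stem, and 12.3% higher and 7.29% lower in node. The lower gene was GBSSI, the endosperm granule-bound synthase, named after its values were seen, at 0.0949 FPKM in node, 3.25 in stem and 5.28 in leaf blade. Its node minus leaf blade value of -2.52 was -1.96 with 1 length per gene, short of the call at 4-fold. That shortfall depends on the added 1, since GBSSI had 12.0 implied fragments in node and 249 in leaf blade. GBSSII, the granule-bound synthase of vegetative tissues, had 46.5 FPKM in node, 559.7 in stem and 61.9 in leaf blade, so node was close to leaf blade and not to stem. SSI, a soluble synthase, had 7.48 FPKM in node, 64.8 in stem and 13.7 in leaf blade. SSIIIb, another soluble synthase, had 6.31, 61.8 and 20.9 FPKM in the same order, under 4-fold in stem versus leaf blade. Of 6 branching, debranching and phosphorylase genes, against leaf blade the stem had 2 higher and 1 lower, and the node had 1 higher and 1 lower. The counts in node are near the 12.3% and 7.29% of all genes, and those in stem stand beside 6.43% and 6.52%. The plastid phosphorylase gene PHOL had 107 FPKM in node, 739.8 in stem and 94.5 in leaf blade. Its stem minus leaf blade value on the log2 scale was 2.95 by FPKM and 4.78 with 1 length per gene. The node minus leaf blade value of PHOL was 0.17 and 0.82 on the same scales. The other gene higher in stem was ISA2, an isoamylase gene named after its values were seen, at 5.54 FPKM in node, 29.4 in stem and 3.04 in leaf blade. The branching enzyme gene BEIIb had 19.6 FPKM in node, 6.01 in stem and 1.12 in leaf blade, with node first. The other gene, BEIIa, was the 1 counted lower in each, at 15.7 FPKM in node, 26.3 in stem and 291 in leaf blade. Those levels came from 97.4, 1436 and 87.1 implied fragments in the same order. The length implied for BEIIa in leaf blade is thus far too short for a transcript, so neither scale is reliable for this gene. Its differences with 1 length per gene were 0.15 in node versus leaf blade and 3.84 in stem versus leaf blade. The direction of BEIIa is therefore uncertain.

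Regulators known to act on starch genes gave no 4-fold difference in stem versus leaf blade among 4 compared, with 1 FPKM added to each level. CRCT, a CCT protein that raises starch in leaf sheaths, had 58.2 FPKM in node, 133 in stem and 157 in leaf blade. RSR1, an AP2 repressor of starch genes in seeds, had 89.1 FPKM in node, 287 in stem and 241 in leaf blade. Its stem minus leaf blade value was 0.25 by FPKM and -0.73 with 1 length per gene, so its direction is uncertain. The endosperm activator bZIP58 had 11.3 FPKM in node, 0.121 in stem and 0.761 in leaf blade, and was the 1 of 4 regulators higher in node by 4-fold, where 12.3% of all genes were. Its stem minus leaf blade value was -0.65, but both levels were under 1 FPKM, where the added 1 shrinks any ratio.

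**Figure D4:**
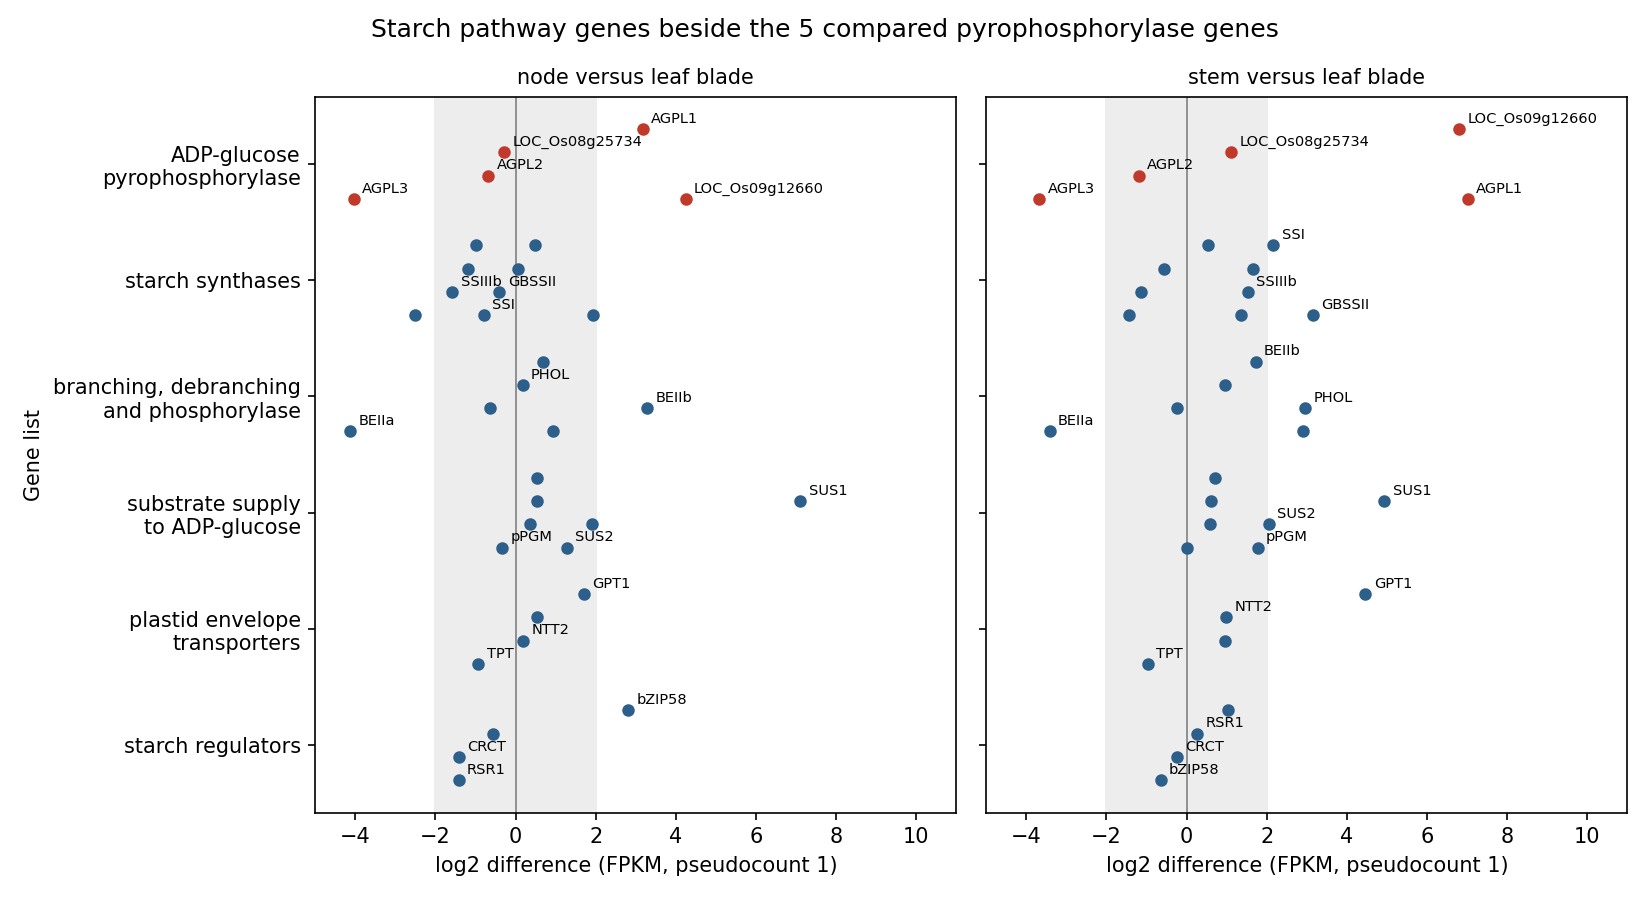
Log2 difference (horizontal axis, FPKM with pseudocount 1) of each compared gene in node versus leaf blade (left) and stem versus leaf blade (right), by gene list (rows), with the grey band under 4-fold. The genes named in the text are labelled, except GBSSI and ISA2. Both panels share the leaf blade library. AGPL1 and LOC_Os09g12660, at 7.01 and 6.81 in stem versus leaf blade, lie to the right of every listed pathway gene there, and SUS1 reaches 7.11 in node versus leaf blade.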

How the data were processed

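For each library the authors deposited FPKM values with interval bounds, gene descriptions and loci, per the file headers. The submitters' processing notes name TopHat. The quantification program, genome build, annotation and strand setting are not given in the sources used here. Starts were increased by 1, since they appear to count from 0: the span from start to end was divisible by 3 in 42.3% of loci, where chance gives 33.3%.

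Implied fragments (n) were computed from the upper bound, taken to lie 2 × FPKM / √n above FPKM. Under 200 fragments, n was whole within 0.02 for 49.2% of rows in node, 49.7% in stem and 49.2% in leaf blade, against 4% by chance, so no count test was run. Implied length is fragments per 1000000 divided by FPKM, and the scale with 1 length per gene, chosen after the data were seen, uses its median over libraries. Rows without an identifier (3227 in node, 3016 in stem, 3241 in leaf blade) or with several (1231, 1119 and 1220) were left out, and 20097 genes at 1 FPKM or more in some tissue were compared. Intervals of differences, sums and shares propagate the deposited half-widths, taken as 2 SD.

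The members and gene lists were chosen with earlier results of these data known. All members were named. From each list, the 3 genes at 10 FPKM or more with the largest difference against leaf blade were named, along with the 3 nearest profiles per member and BT1-1, GBSSI and ISA2, which were chosen after their values were seen. Groups follow the labels. The call rule was run on simulated data with Python 3.11.15, pandas 2.3.3 and numpy 2.4.6. The simulation held large planted differences and counting noise alone. It held no spread between samples, no low levels and no change of length, so it cannot speak to these. Alternatives are listed in the closing section. No transcript or protein sequences were used here.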

Additional observations from a re-analysis of the deposited data

How the results depend on the processing

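With 1 library per tissue, no replicate could be left out. No paired analysis was possible because each tissue has 1 library. All 15 differences of the 5 compared members kept their sign under 7 alternatives. The pseudocounts and filters among these could not change a sign, so only rescaling, fragment shares and 1 length per gene tested it. The calls at 4-fold changed for AGPL3 alone. Its 1 lower call became 0 in node versus leaf blade and 0 in stem versus leaf blade. This held both by shares of implied fragments and with 1 length per gene. In node versus leaf blade it also depends on the pseudocount of 1, since the plain ratio of fragment shares was 4.35-fold. At a 2-fold threshold, 3 members were higher and 2 lower in stem versus leaf blade, and 3 were lower in node versus stem. By implied fragments, which favour long transcripts, large per small subunit was 0.566 in node, 1.12 in stem and 1.14 in leaf blade, and the leading shares were 55.6% in node (LOC_Os09g12660), 52.2% in stem (AGPL1) and 37.3% in leaf blade, where LOC_Os08g25734 led and AGPL3, the leader by FPKM, held 20.7%. With 1 length per gene stem had 1.63 large per small subunit and 61.5% AGPL1, and leaf blade had 1.42 and 18.4% AGPL3, behind LOC_Os08g25734 at 32.9%. Taking all rows described as the enzyme changed nothing, since they are the same 6 genes.

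Counts over all genes, higher then lower, were 2472 and 1466 in node versus leaf blade, 1292 and 1310 in stem versus leaf blade, and 1370 and 463 in node versus stem. They were 3976 and 2273, 2417 and 2285, and 2672 and 882 with a pseudocount of 0.1 FPKM. With a pseudocount of 5 FPKM they were 1080 and 672, 582 and 542, and 483 and 183. At 2-fold they were 5320 and 3439, 3366 and 3624, and 3899 and 1807. Other settings, namely no filter, a filter at 5 FPKM, rescaling without the 50 most abundant genes, fragment shares and 1 length per gene, kept every count over all genes within 1.5 times. Rescaling moved the median in node versus leaf blade to 0.03. Depth limits AGPL4, whose interval reached 23.7% either side of its node level.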
